A study of Mus musculus with 47 samples.

Results

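The genes described here are 9 members of the JAK-STAT pathway, the STAT transcription factors Stat2, Stat3, Stat4, Stat5a, Stat5b and Stat6 and the inhibitors Socs1, Socs3 and Cish. They were taken by gene symbol and are 9 of the 51912 genes listed for bone-marrow-derived macrophages (BMDMs). All 9 were also listed in each of the 4 tables of Raw264.7 cells, a mouse macrophage line, which hold 12771 to 23772 genes. Each was followed across 12 RNA-seq libraries, 6 of BMDMs and 6 of Raw264.7 lines.

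In this pathway a cytokine joins receptor chains that carry JAK kinases, and the kinases phosphorylate STAT proteins, which pair, enter the nucleus and bind DNA. STAT2 works mainly with IRF9 downstream of interferons, STAT3 downstream of IL-6 and IL-10, STAT4 downstream of IL-12, STAT5A and STAT5B downstream of growth factors such as GM-CSF, and STAT6 downstream of IL-4. SOCS1, SOCS3 and CISH belong to the SOCS family, whose genes are classical STAT targets and whose proteins act back on the receptors or kinases. Macrophages are known to use STAT signals both after LPS, through the interferon and IL-10 they secrete, and directly after IL-4.

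The study asked how ZMYND8, a chromatin reader, affects inflammatory gene expression in macrophages. WT BMDMs came from Zmynd8 fl/fl littermates without Cre, and Zmynd8 cKO BMDMs from Zmynd8 fl/fl mice carrying Lyz2-Cre, a Cre driver of myeloid cells that removes exons 6 and 7. Both were C57BL/6 and were grown in M-CSF, then left untreated (NT) or given LPS at 100 ng/ml or IL-4 at 20 ng/ml for 6 h. The Raw264.7 lines were Zmynd8 KO, Zmynd8 KO rescued with WT Zmynd8, Zmynd8 KO rescued with D/E-A (a mutant in which acidic residues are changed to alanine), p65 KO, p65 KO with WT p65 and p65 KO with K122R, a p65 with a lysine changed to arginine. The p65 lines were labelled as LPS treated, whereas the labels gave no treatment for the Zmynd8 lines. The study's text describes the WT Zmynd8 and D/E-A cells as LPS treated. The header of the WT p65 values reads WT and LPS, without the p65 KO. Every condition had 1 library, and biological replicates had been mixed into each BMDM library, so the differences below have no replicate check. The exact binomial test compares the reads of 2 libraries, not the conditions, and the 95% limits given below (Clopper-Pearson) cover counting error only.

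Library totals ran from 22597425 to 28386646 counts in BMDMs and from 15127110 to 21042628 reads in Raw264.7 lines. By whole-gene counts Zmynd8 stood at 87.1 CPM in WT and 81.5 CPM in cKO in NT (CPM, counts scaled to the library total), 79.0 and 86.8 CPM with LPS and 128 and 151 CPM with IL-4, a measure that does not check a deletion of 2 exons. It stood at 121 reads in the Zmynd8 KO library against 485 with WT Zmynd8, and Rela, the gene of p65, at 765 reads in the p65 KO library against 1601 with WT p65 and 5850 with K122R. All 6 macrophage markers had at least 10 counts in every BMDM library, summing to 6133 to 9444 CPM. Summed neutrophil markers were 2.29 to 4.22 CPM in the NT and LPS BMDM libraries but 382 and 514 CPM in the IL-4 ones (WT and cKO), where all 7 of 7 had at least 10 counts. The Raw264.7 libraries fell into 2 sets. Neutrophil markers summed to 4419 to 10340.5 CPM in the 3 Zmynd8 lines and to 0.180 to 0.319 CPM in the 3 p65 lines, the 4 B-cell markers to 119 to 161 against 0.575 to 1.68 CPM, and Xist had 7109 to 8467 reads against 0 to 3. These values go against the single label of Raw264.7 for the Zmynd8 lines, so the 2 sets are not compared with each other below, and with 1 library per condition no value can be given without them.

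Sequence motifs were looked up in the RefSeq promoter windows of GRCm38.p6 (mm10), which hold 300 bases around each annotated start and covered all 9 genes in 12 windows. The sequences shown are those of the 3 inhibitors and of Stat2, which hold matches and were called in several comparisons below. Stat3, Stat4, Stat5a and Stat5b were also called in several and are not shown. Stat4 had a match in 1 of its windows and the others had none. Motifs searched on both strands were TTCNNNGAA, the common STAT core, which is in 8.30% of all 32851 windows, the longer form bound by STAT6, TTC and GAA with 4 bases between them, in 6.95%, and the interferon-response core of a GAAA pair with 2 bases between, in 3.44%. Capitals mark the matches. Positions are counted from the start base as 0. In Cish, matches to TTCNNNGAA began at positions 0 and 11, within chr9:107296654-107296683 (+ strand). In Socs3 (chr11:117969367-117969616, - strand) the same motif began at position -154. That stretch precedes the RefSeq start but lies inside the Socs3 interval of the deposited values, chr11:117966079-117970342. In Socs1 (chr16:10785537-10785786, - strand) overlapping matches to the GAAA pair began at positions -83 and -77. In Stat2 (chr10:128270248-128270497, + strand) the GAAA pair, on the opposite strand, began at position -222 and the longer TTC and GAA form at -210.
Cish: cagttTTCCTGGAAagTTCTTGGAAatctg
Socs3: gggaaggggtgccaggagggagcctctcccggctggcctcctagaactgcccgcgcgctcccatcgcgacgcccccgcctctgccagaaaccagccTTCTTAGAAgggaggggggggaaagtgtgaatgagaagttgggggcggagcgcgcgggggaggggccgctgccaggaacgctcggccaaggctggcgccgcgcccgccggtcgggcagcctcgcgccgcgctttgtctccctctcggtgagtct
Socs1: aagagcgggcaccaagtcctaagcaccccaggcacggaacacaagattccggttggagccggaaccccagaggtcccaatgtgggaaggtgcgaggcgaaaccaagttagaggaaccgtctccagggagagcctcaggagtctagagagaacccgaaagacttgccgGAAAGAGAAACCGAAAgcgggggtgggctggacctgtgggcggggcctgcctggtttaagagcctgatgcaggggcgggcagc
Stat2: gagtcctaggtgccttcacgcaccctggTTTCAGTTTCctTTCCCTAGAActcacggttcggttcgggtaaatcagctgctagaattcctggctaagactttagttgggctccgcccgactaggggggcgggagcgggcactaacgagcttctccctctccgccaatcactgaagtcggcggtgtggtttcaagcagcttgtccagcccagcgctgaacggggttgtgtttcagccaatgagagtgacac
In 1 of the windows of Stat4 the GAAA pair began at position -97, and none of the 3 motifs was found in those of Stat3, Stat5a, Stat5b and Stat6. The windows of Stat5a, Stat5b and Stat6 lie inside the gene intervals given below. The bases before those intervals, including those between Stat5a and Stat5b, were therefore not searched. A match is a string of letters and not a measured binding site.

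Several members are neighbours in mm10. Stat5b (ENSMUSG00000020919, chr11:100780731-100859004, - strand) and Stat5a (ENSMUSG00000004043, chr11:100859351-100885169, + strand) are read away from each other with 346 bases between them, and Stat3 (ENSMUSG00000004040, chr11:100886806-100939579, - strand) ends 1636 bases from Stat5a. Stat5a and Stat5b are near-identical copies over much of their coding sequence, so reads could have been split between them by the counting. Stat6 (ENSMUSG00000002147, chr10:127642039-127660987) and Stat2 (ENSMUSG00000040033, chr10:128270559-128292852) lie 609571 bases apart. Stat4 (ENSMUSG00000062939) is at chr1:51987106-52107189, Socs3 (ENSMUSG00000053113) at chr11:117966079-117970342, Socs1 (ENSMUSG00000038037) at chr16:10783808-10785536 and Cish (ENSMUSG00000032578) at chr9:107296659-107302784.

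Levels were compared between genes only in TPM, a unit that divides counts by gene length before scaling to the library. In WT NT BMDMs Stat2 (142 TPM) and Stat6 (113 TPM) were the most abundant members, followed by Stat3 (37.1 TPM), Stat5b (15.9 TPM), Stat5a (9.30 TPM) and Socs1 (7.12 TPM). Socs3 (1.8 TPM), Stat4 (0.780 TPM) and Cish (0.120 TPM) were the lowest. After LPS the WT library had Stat2 at 486 TPM, Socs3 at 444 TPM and Socs1 at 409 TPM, ahead of Stat3 (200.4 TPM), Stat6 (56.7 TPM), Stat5b (18.8 TPM), Stat5a (18.6 TPM), Cish (2.65 TPM) and Stat4 (1.55 TPM). After IL-4 the order in WT was Stat6 (102 TPM), Stat2 (88.7 TPM), Socs1 (78.7 TPM), Stat3 (40.4 TPM), Cish (30.5 TPM), Stat5a (26.5 TPM), Socs3 (16.1 TPM), Stat5b (15.5 TPM) and Stat4 (0.370 TPM). The inhibitors thus ranked from sixth to last of the 9 in NT, Socs3 and Socs1 came directly after Stat2 with LPS, and Cish ranked above Socs3 with IL-4 in WT. In the cKO IL-4 library Socs3 stood above Cish, at 51.8 against 25.1 TPM. With 1 library a condition, no spread was available to separate neighbours in these orders.

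**Figure D1:**
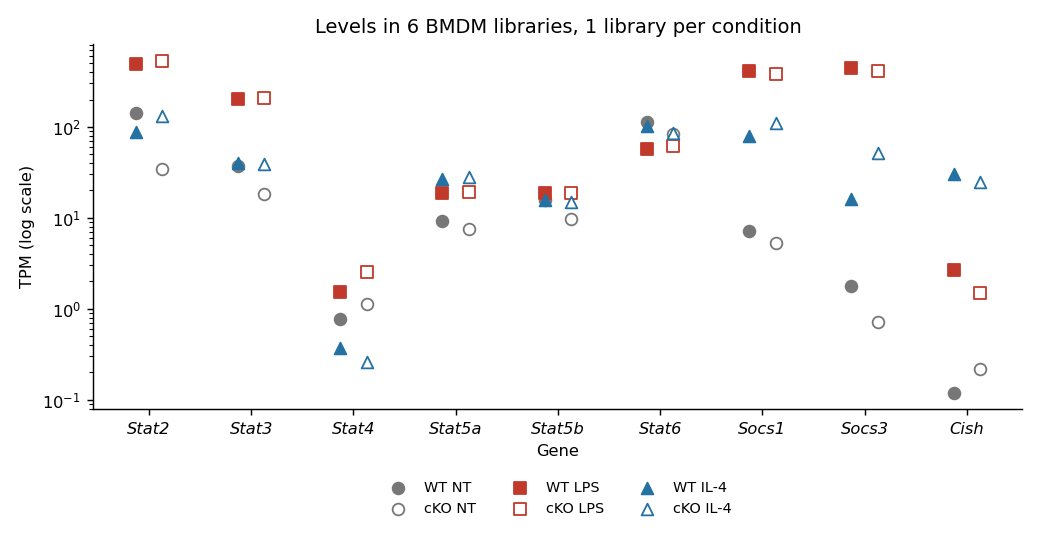
TPM of the 9 genes (log scale) in the 6 BMDM libraries; filled symbols are WT and open symbols cKO, circles NT, squares LPS and triangles IL-4, each from 1 library. Stat5b lies between 9.61 and 18.8 TPM in all 6 libraries, whereas Socs3 runs from 0.720 to 444 TPM.

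Untreated Zmynd8 cKO BMDMs had less Stat2, Stat3, Stat5b and Socs3 and more Stat4 RNA than WT BMDMs. In bulk RNA, fewer cells of a type and less RNA per cell cannot be told apart. A gene was called between genotypes when it averaged 10 counts or more, its fold on the log2(CPM + 1) scale at least 1.2 and its adjusted p of the exact binomial test (Benjamini-Hochberg over all genes tested) under 0.05. By this rule 5 of the 8 members tested were called, 1 higher and 4 lower, beside 47.6% of the 12463 genes tested, 21.7% higher and 25.9% lower. The median log2 difference of the members was -0.17 beside -0.01 over all genes tested. On TPM the calls over all genes shifted from 2701 higher and 3233 lower to 1339 higher and 3924 lower, with a median of -0.20.

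Stat2, the partner of IRF9 in interferon signalling, had 297 CPM in the WT and 104 CPM in the cKO NT library, 2.84-fold lower in cKO (log2 difference -1.51, limits of the ratio -1.58 to -1.45). That difference lay at the 0.8 percentile of all genes tested, and Stat2 stood at 142 against 34.0 TPM. Stat3, the IL-6 and IL-10 transducer, had 105 and 66.9 CPM (log2 difference -0.64, limits -0.74 to -0.56). For Stat5b, a growth factor and growth hormone transducer, the values were 53.4 and 39.0 CPM (log2 difference -0.44, limits -0.58 to -0.33). These 3 genes were lower in the cKO library, while Stat5a, the chromosome 11 neighbour of Stat3 and Stat5b, at 20.3 and 20.0 CPM, differed by -0.01 (limits -0.20 to 0.17). Stat6, the IL-4 transducer, had 268 and 239 CPM, a log2 difference of -0.17 (limits -0.22 to -0.12) that did not reach 1.2-fold, although it did on TPM (-0.42).

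Among the inhibitors, Socs3 had 78 counts in the WT and 32 in the cKO NT library, 2.98 against 1.42 CPM (log2 difference -0.72, limits of the ratio without the added 1 CPM -1.71 to -0.46). Socs1 had 128 and 98 counts (log2 difference -0.14, limits -0.57 to 0.22), which did not pass. Cish had 6 and 11 counts, too few to be tested. Stat4 went the other way, with 35 counts in the WT and 57 in the cKO library (log2 difference 0.59, limits 0.29 to 1.57), on counts that fall below a stricter minimum mean of 50. When a biological coefficient of variation of 0.2 was assumed in edgeR, only Stat2 of these 5 was still called. Macrophage markers differed between the same libraries in both directions, with Mertk at 98.8 CPM in WT and 40.4 CPM in cKO, Fcgr1 at 788 and 448 CPM, Itgam at 862 and 525 CPM and Cd68 at 2555 and 3466 CPM. Xist stood at 739.7 and 323 CPM in this pair and at 246 to 1108 CPM over the 6 BMDM libraries. The part of these differences in the members' values was not tested.

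After LPS every STAT factor but Stat4 lay within 1.2-fold between genotypes. The rule called 2 of 9 members, 1 higher and 1 lower, beside 25.9% of 12387 genes tested (17.1% higher, 8.76% lower), with a median log2 difference of -0.06 for the members and 0.03 for all genes. Over all genes the split of 2119 higher and 1085 lower became 1676 and 1495 with median ratio scaling. Stat2 had 1171 CPM in WT and 1142 CPM in cKO (log2 difference -0.04, limits -0.06 to -0.01), and Stat3 632 and 607 CPM (-0.06, limits -0.09 to -0.03). Stat5a (39.2 and 37.3 CPM), Stat5b (56.1 and 60.8 CPM) and Stat6 (141 and 141 CPM) differed by -0.07, 0.11 and 0.01 on the log2 scale.

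The inhibitors all read lower in the cKO LPS library, but only Cish was called. Cish had 129 counts in WT and 65 in cKO (5.18 and 2.77 CPM, log2 difference -0.71, limits -1.35 to -0.46), at the 1 percentile of all genes tested. Socs3 stood at 767 and 662 CPM (log2 difference -0.21, limits -0.24 to -0.18) and Socs1 at 295 and 260 CPM (-0.18, limits -0.23 to -0.14). Neither reached 1.2-fold, and Socs3 did so under median ratio scaling (-0.27). Stat4 had 60 counts in WT and 101 in cKO (log2 difference 0.64, limits 0.36 to 1.33), above WT as in NT. With the assumed variation of 0.2 neither Cish nor Stat4 was called. Dendritic markers summed to 32.2 CPM in the WT and 48.8 CPM in the cKO LPS library. Of the macrophage markers, Adgre1 (1181 and 1737 CPM) and Itgam (479 and 757 CPM) were higher in cKO. Cd68 (1648 and 1427 CPM) and Fcgr1 (1939 and 1735 CPM) were lower. Their part in the members' values was not tested.

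After IL-4 the cKO library had more Socs3, Stat2 and Socs1. The rule called 3 of 9 members, all higher in cKO, beside 24.2% of 13245 genes tested (13.8% higher, 10.5% lower), and the median log2 difference was 0.13 for the members and 0.01 for all genes. Socs3, which restrains gp130 receptors, had 742 counts in WT and 2239 in cKO (26.1 and 85.7 CPM), 3.19-fold higher (log2 difference 1.68, limits 1.59 to 1.83) and at the 99.6 percentile of all genes tested. Stat2 had 171 and 258 CPM (log2 difference 0.59, limits 0.54 to 0.65). Socs1, an inhibitor of JAK kinases, had 53.0 and 76.2 CPM (log2 difference 0.52, limits 0.43 to 0.62). Of these 3, only Socs3 was called with the assumed variation of 0.2.

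Cish did not share this direction, with 61.3 CPM in WT and 52.1 CPM in cKO (log2 difference -0.23, limits -0.34 to -0.13). Stat6, which transmits the IL-4 signal, had 241 and 201 CPM (log2 difference -0.26, limits -0.31 to -0.21), just inside 1.2-fold, and passed under TMM and median ratio scaling (-0.27 and -0.28). Stat3 (111 and 113 CPM), Stat5a (49.9 and 54.6 CPM) and Stat5b (51.7 and 51.8 CPM) differed by 0.02, 0.13 and 0.00387 on the log2 scale. Stat4, at 9 and 12 counts, could not be separated (limits -0.84 to 1.96). Neutrophil markers summed to 514 CPM in the cKO and 382 CPM in the WT IL-4 library, B-cell markers to 17.2 and 11.1 CPM and dendritic markers to 214 and 247 CPM, and their part in these differences was not tested.

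The genotypes were also paired across the 3 treatments, in edgeR's quasi-likelihood test with treatment as a block over the 6 libraries, which tests the average difference and leaves 2 residual degrees of freedom. No member and 0 of 13075 genes had an adjusted p under 0.05, and 403 genes had an unadjusted p under 0.05. Stat4, above WT by value in each of the 3 pairs, was the 1 member among those 403 (log2 difference 0.79, adjusted p = 0.999 in edgeR). Stat2 (-0.32) and Socs3 (0.22), whose differences had opposite signs in NT and with IL-4, averaged closer to 0 than in either of those pairs.

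**Figure D2:**
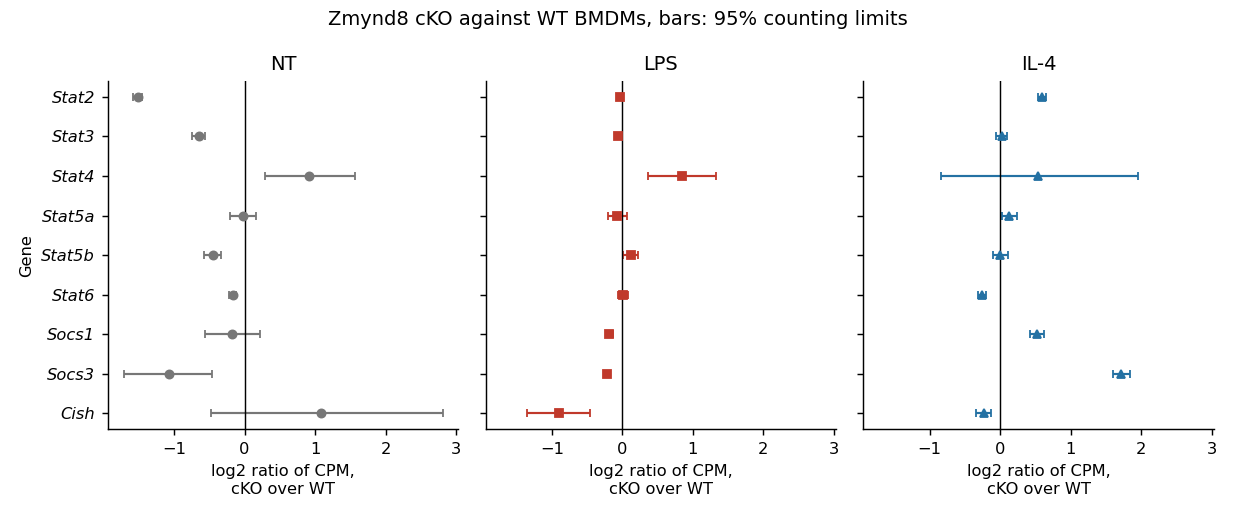
Log2 ratio of CPM, cKO over WT, for the 9 genes in NT, LPS and IL-4 BMDMs; points are single pairs of libraries and bars 95% counting limits. Stat2 lies at -1.51 in NT, -0.04 after LPS and 0.59 after IL-4, and Socs3 at -1.07, -0.21 and 1.71.

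The genes around the members were counted in lists by role, to be read against the shares of all genes called higher and lower, 21.7% and 25.9% in NT, 17.1% and 8.76% with LPS and 13.8% and 10.5% with IL-4. Il4ra stands in both the receptor list and the IL-10 and IL-6 target list. The JAK kinases (Jak1, Jak2, Jak3, Tyk2) had 3 of 4 lower and none higher in cKO NT BMDMs, with Jak2 at 42.4 CPM in WT and 22.7 CPM in cKO (log2 difference -0.87). After LPS and after IL-4, Jak2 was the only kinase called and was higher in cKO, at 356 against 452 CPM with LPS and 308 against 376 CPM with IL-4. Of the receptor chains, 9 of 17 tested were lower and 2 higher in cKO NT, among them Il6st, the gp130 chain (205 and 106 CPM), and Il2rg, the common gamma chain, which was higher (134 and 200.3 CPM). After LPS the 2 of 18 receptors called were both lower, a lower count near the share of all genes. They were Il4ra, the IL-4 receptor chain (1275 and 820 CPM), and Il13ra1 (116 and 95.3 CPM). With IL-4 the list held 3 higher genes of 17, near the share of all genes, and 4 lower, with Csf2rb, the shared GM-CSF chain, at 1289 and 839 CPM. Not all of the 12 ligands could be tested. Of those tested, 2 of 4 were lower in NT (Il15 and Il10) and 4 of 6 higher after IL-4. After LPS 2 of 8 were higher (Il12b and Il6) and 3 lower (Il10, Il27 and Ifnb1). In the LPS libraries Il10, which signals through STAT3, had 62.4 CPM in WT and 44.2 CPM in cKO, and Il12b, a subunit of the STAT4-activating IL-12, had 8.67 and 27.6 CPM.

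The STAT target lists differ in size and were counted by the same rule. All 12 of 12 interferon targets were lower in cKO NT BMDMs (median log2 difference -1.78, beside -0.01 for all genes tested), as for Ifit2 (698 and 78.9 CPM) and Rsad2 (621 and 97.9 CPM), both antiviral proteins. After LPS, 3 of 12 were lower and none higher (median -0.11), including Usp18, a brake on the interferon receptor (1156 and 917 CPM). With IL-4 the interferon list turned, 10 of 12 higher and none lower (median 1.15, beside 0.01 for all genes), with Ifit1 at 54.3 and 183 CPM. The direction of this list matched that of Stat2 in NT and after IL-4. Of the IL-4 targets, 1 of 5 tested was higher and 1 lower in NT, none of 8 higher and 3 lower after LPS, and 1 of 9 higher and 3 lower after IL-4. Pdcd1lg2, the PD-L2 ligand, was among the latter with 78.9 CPM in WT and 58.2 CPM in cKO, and Chil3, a chitinase-like protein, was the 1 higher (296 and 399 CPM). Of the IL-10 and IL-6 targets, 1 of 7 was higher and 3 lower in NT, 1 lower after LPS (Il4ra, counted above as a receptor), and 2 higher and 1 lower after IL-4, with Il1rn, the IL-1 receptor antagonist, at 113 and 202 CPM. Of the other inhibitors (SOCS, PIAS and phosphatase genes), 1 of 12 was higher and 6 lower in NT, 2 of 13 higher and 2 lower after LPS, and none of 13 higher and 2 lower after IL-4, the higher count after LPS and the lower one after IL-4 being near the shares of all genes, with Socs2 at 26.2 CPM in WT and 10.9 CPM in cKO IL-4 BMDMs.

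**Figure D3:**
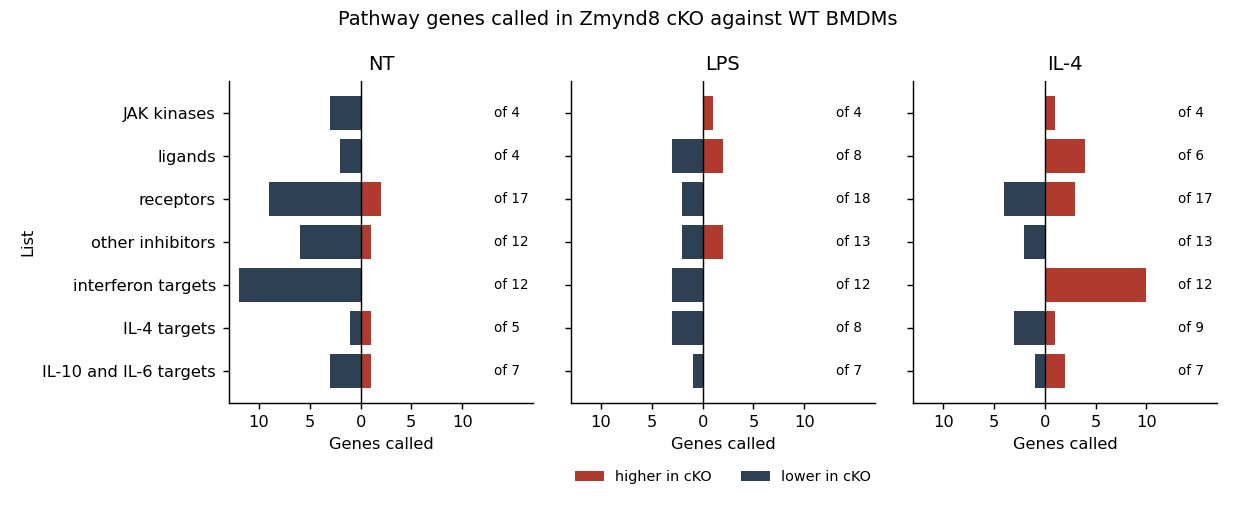
Number of genes of each list called higher (bars to the right) or lower (bars to the left) in cKO against WT BMDMs, with the number tested at the right edge. The interferon targets stand at 12 lower in NT and 10 higher after IL-4.

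LPS against NT was next compared within each genotype, across separately deposited tables whose counts were scaled by library totals. A call required a 2-fold difference here. In both genotypes 5 of 9 members were called, all higher, beside 43.3% of 12813 genes in WT (10.5% higher, 32.8% lower) and 46% of 12666 genes in cKO (13.2% higher, 32.8% lower). The median log2 difference of all genes was -0.58 in WT and -0.55 in cKO with library totals and -0.10 and -0.08 with TMM scaling, which turned 1345 higher and 4203 lower calls in WT into 2110 and 2255, and 1668 and 4157 in cKO into 2469 and 2397. On TPM the median in cKO was -0.27. The members' medians with library totals were 1.98 in WT and 1.34 in cKO.

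Socs3 rose most after LPS, from 78 to 19106 counts in WT (2.98 to 767 CPM) and from 32 to 15516 in cKO (1.42 to 662 CPM). On the log2(CPM + 1) scale this was 7.59 in WT and 8.10 in cKO, at the 99.9 percentile of all genes in both. Socs1 rose from 128 to 7350 counts in WT (log2 difference 5.65, limits 5.67 to 6.18 without the added 1 CPM) and from 98 to 6082 in cKO (5.61, limits 5.62 to 6.21). Cish rose less, from 6 to 129 counts in WT (2.33, limits 3.34 to 5.97) and from 11 to 65 in cKO (1.34, limits 1.58 to 3.58). Leaving out genes with a mean under 50 counts removed the cKO value of Cish.

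Of the STAT factors, Stat2 and Stat3 were called after LPS in both genotypes. Stat2 went from 297 to 1171 CPM in WT (log2 difference 1.98, limits 1.94 to 2.02) and from 104 to 1142 CPM in cKO (3.44, limits 3.40 to 3.52). The LPS libraries of the 2 genotypes were thus close in Stat2 and the NT libraries apart. Stat3 went from 105 to 632 CPM in WT (2.58, limits 2.53 to 2.65) and from 66.9 to 607 CPM in cKO (3.16, limits 3.11 to 3.26). Stat5a differed by 0.92 in WT and 0.86 in cKO, under 2-fold, but passed with TMM scaling (1.48 and 1.40). Stat5b differed by 0.07 in WT and 0.63 in cKO, where TMM scaling gave 1.17. Stat4 differed by 0.55 in WT (35 to 60 counts) and 0.59 in cKO (57 to 101 counts), and reached 2-fold with median ratio scaling in both (1.00 and 1.07) and with TMM in cKO (1.02). Stat6 read lower after LPS, from 268 to 141 CPM in WT (-0.92, limits -0.99 to -0.87) and from 239 to 141 CPM in cKO (-0.75, limits -0.82 to -0.69), short of 2-fold and at the 35.5 and 42.2 percentiles of all genes tested. With TMM scaling Stat6 stood at -0.34 and -0.20.

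Beside the shares of all genes called, 10.5% higher and 32.8% lower in WT and 13.2% and 32.8% in cKO, 11 of 12 interferon targets were higher after LPS in each genotype (median 3.34 in WT and 4.76 in cKO), as were 3 of 4 JAK kinases. Jak2 went from 42.4 to 356 CPM in WT and from 22.7 to 452 CPM in cKO. Of the ligands 7 of 8 tested were higher in each genotype, with Il27 at 1.11 CPM in NT and 88.7 CPM after LPS in WT. The IL-10 and IL-6 targets had 6 of 7 higher in WT and 7 of 7 in cKO. Receptors had 8 of 17 higher and 2 lower in each genotype, the lower ones including Ifngr1, an interferon-gamma receptor chain (98.6 to 20.5 CPM in WT). The IL-4 targets had 3 of 8 higher and 1 lower in each, and the other inhibitors 2 of 13 higher and 4 lower in WT and 1 higher and 3 lower in cKO, lower counts no larger in share than those of all genes.

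IL-4 against NT gave 4 of 9 members called in WT, all higher, beside 16.2% of 13090 genes (10% higher, 6.19% lower). In cKO 6 of 9 were called, 5 higher and 1 lower, beside 21.1% of 12966 genes (15% higher, 6.09% lower). The NT, LPS and IL-4 libraries each have a table of their own. Sample numbers in the titles run on from the NT to the LPS libraries and stand apart for the IL-4 ones. IL-4 therefore cannot be told apart from that difference between sets of libraries. Both NT values are shared with the LPS comparisons above. The all-gene medians were 0.15 in WT and 0.17 in cKO, and with TMM scaling -0.01 and -0.03, where 1059 higher and 1047 lower genes in WT replaced 1314 and 810, and 1486 and 1123 in cKO replaced 1950 and 790. On TPM the all-gene median in cKO was 0.34. Members' medians were 0.08 in WT and 1.30 in cKO. Neutrophil markers moved with these comparisons, from 2.29 to 382 CPM in WT and from 2.35 to 514 CPM in cKO. Dendritic markers went from 50.4 to 247 CPM and from 68.0 to 214 CPM, and B-cell markers from 1.53 to 11.1 CPM and from 4.69 to 17.2 CPM. The part of these markers in the results was not tested.

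Cish had the largest CPM ratio of the 9 with IL-4 in both genotypes, although in cKO Socs3 stood level with it on the log2(CPM + 1) scale. Its counts went from 6 to 1741 counts in WT and from 11 to 1360 in cKO (0.229 to 61.3 and 0.487 to 52.1 CPM). The log2 differences were 5.66 in WT (limits without the added 1 CPM 6.94 to 9.51) and 5.16 in cKO (limits 5.90 to 7.75). Socs1 rose from 4.88 to 53.0 CPM in WT (3.20, limits 3.18 to 3.71) and from 4.34 to 76.2 CPM in cKO (3.85, limits 3.84 to 4.44). Socs3 rose from 2.98 to 26.1 CPM in WT (2.77, limits 2.80 to 3.49) and from 1.42 to 85.7 CPM in cKO (5.17, limits 5.42 to 6.47). The differences of these responses between the 2 genotypes had no replicate test.

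Stat5a was the STAT factor called higher after IL-4 in both genotypes, from 20.3 to 49.9 CPM in WT (1.26, limits 1.15 to 1.45) and from 20.0 to 54.6 CPM in cKO (1.40, limits 1.29 to 1.60). Its neighbour Stat5b differed by -0.05 in WT and 0.40 in cKO. Stat2 differed in opposite directions, from 297 down to 171 CPM in WT (-0.79, limits -0.85 to -0.74, under 2-fold) and from 104 up to 258 CPM in cKO (1.30, limits 1.25 to 1.38). Stat3 differed by 0.08 in WT, with the sign turning under TMM scaling (-0.10), and by 0.74 in cKO, which reached 1.04 on TPM. Stat4 fell in cKO from 57 to 12 counts (log2 difference -1.27, limits -3.49 to -1.54), a call not kept on TPM (-0.76), and went from 35 to 9 counts in WT (-0.83, limits -3.32 to -0.99). Stat6 differed by -0.16 in WT and -0.25 in cKO, 0.02 on TPM in the latter.

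**Figure D4:**
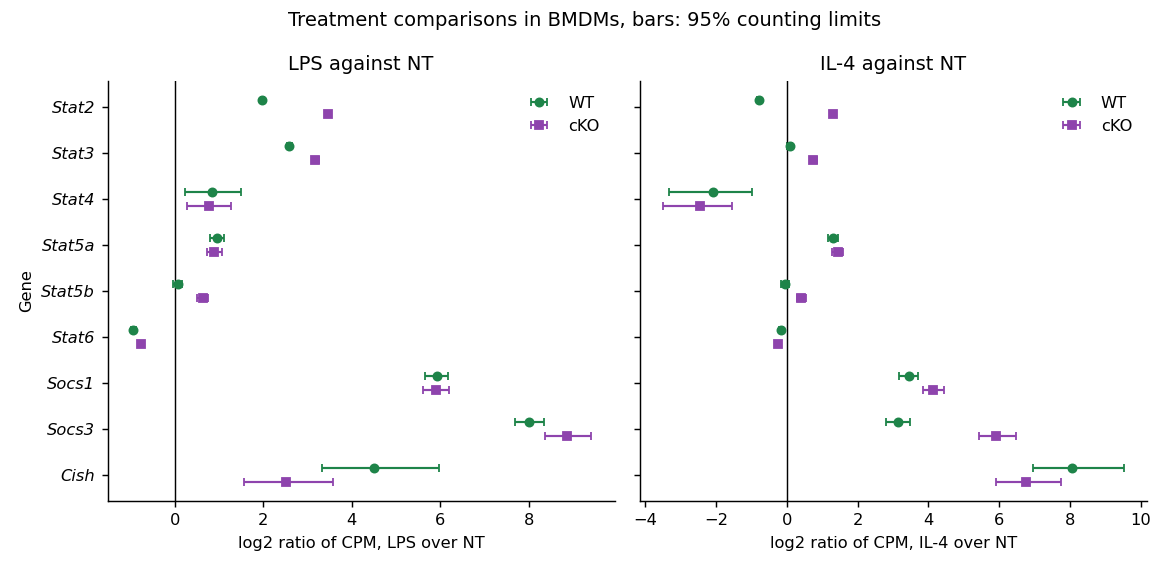
Log2 ratio of CPM in LPS over NT (left) and IL-4 over NT (right) for the 9 genes, WT as circles and cKO as squares; bars are 95% counting limits, 1 library per condition. Socs3 lies furthest right after LPS (8.01 in WT, 8.87 in cKO) and Cish after IL-4 (8.07 and 6.74).

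The shares of all genes called after IL-4 were 10% higher and 6.19% lower in WT and 15% and 6.09% in cKO. The lists showed 7 of 9 IL-4 targets tested higher in WT and 6 of 8 in cKO, with Arg1, arginase 1, going from 0.763 to 1500 CPM in WT and from 0.620 to 1541 CPM in cKO. Interferon targets had 7 of 12 lower and none higher in WT (median -1.71) and 9 of 12 higher and none lower in cKO (median 1.12). Rsad2 went from 621 to 72.3 CPM in WT, and Ifit1 from 43.2 to 183 CPM in cKO. Jak2 and Tyk2 were higher in both genotypes, Jak2 from 42.4 to 308 CPM in WT and from 22.7 to 376 CPM in cKO. Among the other inhibitors Socs2, a further SOCS gene, was the only one called, from 0.382 to 26.2 CPM in WT and from 0.398 to 10.9 CPM in cKO. Receptors had 7 of 17 higher and 1 lower in WT, the latter near the share of all genes, and 8 higher and none lower in cKO, with Csf3r, the G-CSF receptor, going from 35.6 to 330.2 CPM in WT. No ligand of 4 tested was called in WT and 3 of 6 were higher in cKO, while the IL-10 and IL-6 targets had 4 of 7 higher and 1 lower in WT and 5 higher and 1 lower in cKO.

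The genes most like each inhibitor were ranked by Pearson correlation of log2(CPM + 1) over the 6 BMDM libraries, among 9933 genes averaging 100 counts or more. The 6 points fall into 3 treatments and share their libraries and totals, so the values are descriptions. For Socs1 the closest were Cd40 (r = 0.999), a co-stimulatory receptor, Fas (0.997), a death receptor, and Traf2 (0.997), an adaptor of TNF-family receptors. Cd40 counts were 611 and 399 in NT (WT, cKO), 32422 and 31125 in the LPS pair and 6181 and 9959 in the IL-4 pair, higher in the cKO than the WT IL-4 library like Socs1. For Socs3 they were Ppfia3 (0.998), Mettl6 (0.997) and Sod2 (0.996), the mitochondrial superoxide dismutase, with 2291 and 1957 counts in NT, 31611 and 27609 in the LPS pair and 5982 and 10295 in the IL-4 pair. For Cish they were Pdcd1lg2 (0.996), Ncf4 (0.996), an NADPH oxidase subunit, and Arg1 (0.995). Pdcd1lg2 had 1 and 3 counts in NT, 186 and 72 in the LPS pair and 2241 and 1520 in the IL-4 pair, lower in cKO than WT after both treatments, as Cish was by value.

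In the Zmynd8 lines labelled Raw264.7, the D/E-A library differed from the WT Zmynd8 library in all 9 members. Values here are reads divided by a size factor, with no length correction, so no level was compared between genes. A 1.2-fold difference alone made a call, and 9 of 9 members passed (7 higher, 2 lower), beside 72.6% of the 12771 genes listed (36.7% higher, 35.9% lower). With the exact binomial test on recovered reads added, 7841 genes were called (61.4%, with 32.8% higher and 28.6% lower), among them all 9 members. The members' median was 0.68 and that of all genes 0.02. Neutrophil markers summed to 10340.5 CPM with WT Zmynd8, 6960 CPM in Zmynd8 KO and 4419 CPM with D/E-A, macrophage markers to 2184, 2943 and 3690 CPM, and ribosomal RNA genes took 17.1%, 13.8% and 8.17% of reads. Their part in the differences was not tested.

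Socs3 had a value of 7903 with WT Zmynd8 and 22327 with D/E-A (2.82-fold higher, log2 limits 1.46 to 1.54), the largest difference of the 9. Stat3 followed with 6416 and 13278 (1.05, limits 1.01 to 1.09), and Socs1 with 1698 and 3482 (1.04, limits 0.95 to 1.12). Stat2 (10757 and 17907), Stat5b (1003 and 1608), Stat6 (1475 and 2012) and Stat5a (2526 and 3202) were higher by 0.74, 0.68, 0.45 and 0.34 on the log2 scale. Cish fell from 253 to 165 (-0.62, limits -0.91 to -0.33) and Stat4 from 215 to 116 (-0.89, limits -1.23 to -0.56). The inhibitors therefore split, with Socs1 and Socs3 higher and Cish lower.

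Zmynd8 KO was set against the same WT Zmynd8 library in a table of its own, so the 2 comparisons share that library. Here 7 of 9 members were called, 6 higher and 1 lower, beside 70.3% of 21302 genes tested (33.8% higher, 36.5% lower), with a median of 0.33 for the members and -0.03 for all genes. The exact binomial test kept these 7 and 6683 genes in all (31.4%, with 18% higher and 13.4% lower). Socs3 had 8435 with WT Zmynd8 and 17315 in Zmynd8 KO (log2 difference 1.04, limits 1.00 to 1.08), and Socs1 1812 and 3518 (0.96, limits 0.87 to 1.04). Stat3 had 6848 and 10714 (0.65, limits 0.60 to 0.69) and Stat5b 1071 and 1622 (0.60, limits 0.49 to 0.71). Stat2 (11481 and 14384) and Stat5a (2696 and 3353) were higher by 0.33 and 0.31, and fell under 1.2-fold when library totals were used (0.25 and 0.24). Stat4 was lower, 229 against 157 (-0.54, limits -0.85 to -0.25). Stat6 (1575 and 1814) and Cish (270 and 291) stayed under 1.2-fold.

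List calls in these lines rest on the 1.2-fold rule alone, which called 36.7% of all genes higher and 35.9% lower with D/E-A and 33.8% and 36.5% in Zmynd8 KO. Around the members, 4 of 4 JAK kinases were higher both with D/E-A and in Zmynd8 KO, as were 16 of 17 and 13 of 18 receptors and 7 of 7 and 6 of 7 IL-10 and IL-6 targets, none of these lists holding a lower gene. Sbno2, a target of STAT3, had 4393 with WT Zmynd8 and 10854 with D/E-A. Interferon targets had 6 of 12 higher and 3 lower with D/E-A and 4 of 12 higher in Zmynd8 KO. Ifit2 went from 31443 to 84131 and Isg15, a ubiquitin-like protein, from 30408 to 22574 with D/E-A. Ligands had 2 of 10 higher and 4 lower with D/E-A and 3 of 12 higher and 4 lower in Zmynd8 KO, where Ifnb1, interferon beta, was at 458 with WT Zmynd8 and 271 in KO. IL-4 targets had 2 of 8 higher and 4 lower, and 4 of 9 higher and 1 lower. The other inhibitors had 7 of 13 higher and 2 lower, and 5 of 13 higher and 1 lower, with Socs2 lower in both, 181 to 93.1 with D/E-A and 193 to 116 in KO. In Zmynd8 KO the interferon targets and other inhibitors called higher lay near the share of all genes. The ligands called lower did so in both comparisons.

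In the p65 lines, K122R against WT p65 had 5 of 9 members called, 3 higher and 2 lower, beside 63.3% of 19670 genes tested (30.8% higher, 32.5% lower), with a median of 0.05 for the members and 0.01 for all genes. The exact binomial test called 4 of them and 5219 genes in all (26.5%, with 13% higher and 13.5% lower), and with library totals the all-gene split of 6051 higher and 6402 lower became 4753 and 8077 and the median -0.14. Rela had 1601 reads with WT p65 and 5850 with K122R, and Zmynd8 1826 and 1070. Dendritic markers summed to 100.1 and 49.7 CPM and macrophage markers to 1116 and 1132 CPM, and ribosomal RNA genes took 0.228% and 0.636% of reads. The part of these differences in the members' values was not tested. Cish had a value of 651 with WT p65 and 1254 with K122R (log2 difference 0.94, limits 0.81 to 1.08). Socs3 had 11479 and 16288 (0.50, limits 0.47 to 0.54). Stat2 had 4319 and 5264 (0.29, limits 0.23 to 0.34) and was under 1.2-fold with library totals (0.14). Stat5b was lower, 833 and 619 (-0.43, limits -0.58 to -0.28). Stat4 met the fold rule on 4 and 3 reads, which cannot show a difference (limits -3.13 to 2.20). Socs1 had 125 reads in each library, and Stat3 (3810 and 3361), Stat5a (4186 and 4015) and Stat6 (3122 and 3727) stayed under 1.2-fold, though Stat3 passed with library totals (-0.32) and Stat6 with TMM scaling (0.28).

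p65 KO was set against the same WT p65 library in a further table, and Rela reads differed between the pair as given above. By fold alone 2 of 9 members were called, 1 higher and 1 lower, beside 51.9% of 19879 genes tested (26.3% higher, 25.7% lower), and with the exact binomial test added no member was called, beside 2620 genes in all (13.2%, with 6.45% higher and 6.73% lower). The medians were 0.01 for the members and for all genes. The 2 were Socs1, with 125 reads against 152 in p65 KO (log2 difference 0.33, limits -0.02 to 0.68), and Stat4, with 4 against 2 reads (limits -4.42 to 1.85). Socs3 had 11503 with WT p65 and 11580 in p65 KO (log2 difference 0.00963, limits -0.03 to 0.05). Stat2 (4328 and 4699), Stat3 (3818 and 3555), Stat5a (4195 and 3862), Stat5b (835 and 714), Stat6 (3128 and 3233) and Cish (653 and 715) lay within 1.2-fold.

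**Figure D5:**
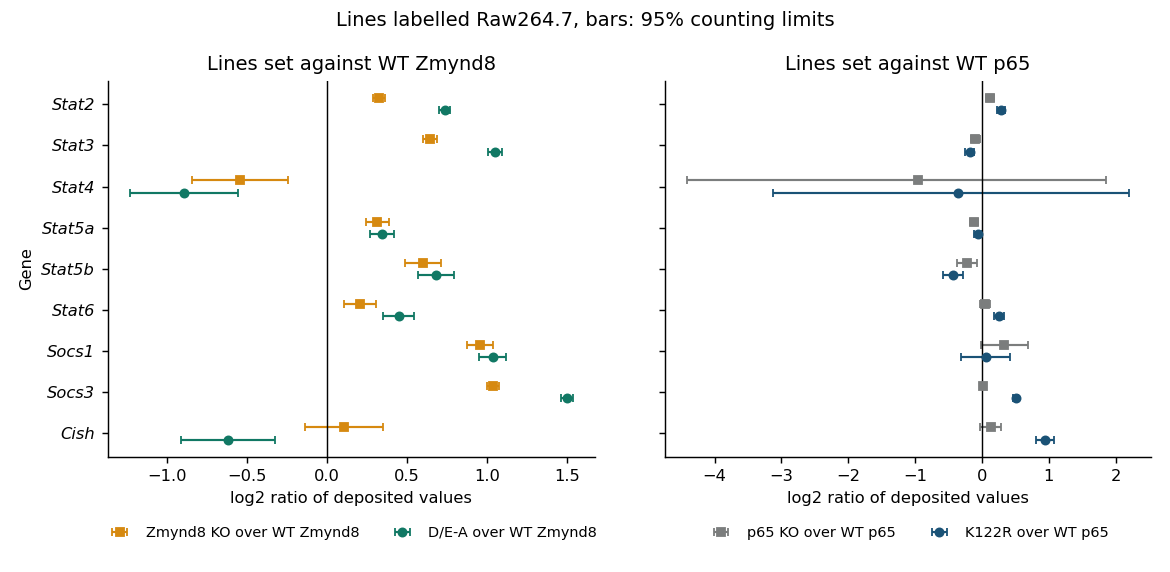
Log2 ratio of deposited values in lines labelled Raw264.7, for the Zmynd8 lines against WT Zmynd8 (left) and the p65 lines against WT p65 (right), with 95% counting limits; each panel shares 1 control library. Socs3 lies within limits of 1.46 to 1.54 with D/E-A and at 1.04 in Zmynd8 KO, and at 0.50 with K122R and 0.00963 in p65 KO; the wide bars of Stat4 on the right rest on 2 to 4 reads.

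The list calls in the p65 lines also rest on fold alone, which called 30.8% of all genes higher and 32.5% lower with K122R and 26.3% and 25.7% in p65 KO. Among the lists, K122R had 8 of 11 ligands higher and 3 lower and p65 KO 2 of 11 higher and 6 lower. Lif, a cytokine that acts through gp130, had 1144 with WT p65 and 3698 with K122R, and Csf3, the G-CSF gene, 288 and 927, while in p65 KO Csf3 was lower, 289 against 93.6. Receptors had 10 of 16 higher and 1 lower with K122R and 5 of 17 higher and 2 lower in p65 KO, the latter near the share of all genes called higher. The JAK kinases had 2 of 4 higher with K122R and none called in p65 KO. Interferon targets had 8 of 12 higher with K122R, including Ifit2 (12860 and 23947), and 1 of 12 lower in p65 KO (Rsad2, 70207 and 49557). The IL-10 and IL-6 targets had 4 of 7 higher with K122R and 3 of 7 higher in p65 KO, Il1rn being the highest of them in each, at 2689 and 13743 with K122R and 2695 and 5603 in p65 KO. IL-4 targets had 2 of 7 higher and 3 lower with K122R and 1 of 6 higher and 4 lower in p65 KO, and the other inhibitors 3 of 13 higher and 1 lower, and 1 higher and 1 lower.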

How the data were processed

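RNA-seq was used from 12 of the 47 samples, and the other 35 were not analysed here. Groups came from the sample labels. The BMDM tables deposited by the authors hold estimated counts per gene, not normalized, beside TPM, after TopHat alignment to mm10. Estimated counts were rounded, and entries that name no gene (431 in the NT and LPS tables, 2 in the IL-4 table) were left out. For Raw264.7 lines the authors deposited signal values that are whole reads divided by a size factor. At a tolerance of 0.02 reads, all values of 5 libraries and 99.996% of the Zmynd8 KO library came out whole. The deposited fold changes and p-values hold the authors' own comparisons and were not used, and 2 value columns of the D/E-A table that match no label were not used.

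Counts were divided by library totals (CPM) and compared as log2(CPM + 1), among genes averaging 10 counts or more. Deposited Raw264.7 values were compared within their table as log2(value + 1), among genes whose mean value reached 1. With 1 library per condition, the exact binomial test (SciPy 1.17.1, Benjamini-Hochberg adjusted) stood in for a replicate test, as planned, and edgeR 4.0.16 (R 4.3.3) was run with an assumed coefficient of variation of 0.2. Genotypes were also paired across the 3 treatments in edgeR's quasi-likelihood test (TMM scaling, treatment as a block), an alternative chosen after seeing the data. These tests were tested on simulated data first. For the exact binomial test and the assumed variation the simulation held counting error only. For the paired test it held a set variation and the same genotype difference in every treatment. The simulations therefore do not show how the tests behave on these libraries.

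Besides the 9 members and markers, genes named were, per list and comparison, among the 2 highest and 2 lowest called that averaged 100 counts or more (Raw264.7, a mean value of 10 or more), plus the 3 genes most like each inhibitor. Some called genes outside that rule were named after their values were seen. The members and lists were chosen with earlier results of these data known. Promoter sequences are RefSeq's, and protein sequences were not used here.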

Additional observations from a re-analysis of the deposited data

Results flagged for a closer look

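Stat2 differed in opposite directions between cKO and WT BMDMs, by -1.51 on the log2 scale in NT and 0.59 after IL-4. Socs3 did the same, by -0.72 in NT and 1.68 after IL-4. Stat2 also differed in opposite directions between IL-4 and NT in the 2 genotypes, by -0.79 in WT and 1.30 in cKO. The counting limits of each lay on 1 side of 0. The Stat2 difference between IL-4 and NT in WT was under the 2-fold asked of treatments. With the assumed variation of 0.2 in edgeR, Stat2 after IL-4 and Socs3 in NT were no longer called between genotypes. Each rests on 1 library per condition, and the difference between them was not tested. The opposite signs of Stat2 in both contrasts rest on the same 4 libraries.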

How the results depend on the processing

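No member changed direction and was called under any alternative run. Of the members' values under the alternatives, 742 stayed on their side of the call, 30 passed newly and 47 no longer passed. With a fold of at least 2 in place of 1.2, members called fell to 1 in NT, 0 after LPS and 1 after IL-4 (cKO against WT), 3 with D/E-A, 1 in Zmynd8 KO, 0 with K122R and 0 in p65 KO, and genes called in all to 477, 112, 261, 2345, 5460, 3926 and 3149 (5934, 3204, 3208, 9271, 14978, 12453 and 10325 in the report). With 1.2 in place of 2, LPS against NT called 8 members in WT and 9 in cKO, and genes called rose to 10474 and 10476 (5548 and 5825), and for IL-4 to 7892 and 8686 (2124 and 2740). LPS against NT in cKO called 8 members with TMM and 8 with median ratio scaling, Stat4, Stat5a and Stat5b being added. With edgeR at an assumed variation of 0.2, cKO against WT called 1 member in NT (Stat2), 0 after LPS and 1 after IL-4 (Socs3), and 273, 37 and 160 genes. In p65 KO a minimum mean value of 5 left 1 member and 6514 genes, and the exact binomial test 0 members and 2620 genes; that test left 6683 genes in Zmynd8 KO and 5219 with K122R. The TPM alternative was chosen after seeing the data. Within a comparison no paired analysis was possible because each has 1 library a side, and for the same reason no replicate could be left out. Pairing the genotypes across the 3 treatments, also chosen after seeing the data, called 0 members and 0 genes, and without NT, LPS or IL-4 in turn 0 members and 13, 23 and 16 genes. Counts of a few reads (Stat4 in p65 lines, Cish in NT) limit those values.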
